A study of Mus musculus with 7 samples.

Results

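Among the transcripts found in thymocytes that had just acquired a surface γδ TCR, at 21.6 to 376 CPM, were those of 8 genes not best known from T cells: Nrgn, Igfbp4, Tuba8, Qpct, Fhl2, Cpa3, Bex6 and Gem. They were chosen by their high CPM in the DN3b γδ+ library, out of 32286 features, so their levels there against the other libraries are a description and were not tested. For each of the 8 the level per library, the share of barcodes in which it was detected and its co-detection with the other 7 were measured. A level is given in CPM, that is, the UMIs (deduplicated transcript molecules) of a gene over all UMIs of the thymocyte barcodes of the library, on the usual CPM scale.

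The study sorted CD4- CD8- double-negative (DN) thymocytes of C57BL/6 mice, 6 to 8 weeks old, across the point at which αβ and γδ lineages part. From pooled WT thymi came 5 libraries: DN3a, DN3b γδ− and DN4 γδ−, the last pair being precursors past β-selection, and DN3b γδ+ and DN4 γδ+, which carried a surface γδ TCR and were gated as CD24+ CD44low. From pooled thymi of Lat-/-TCRd-H2BEGFP mice, which lack the adaptor LAT in every cell and carry a histone-GFP reporter at Trdc, came 2 libraries, Lat-/- DN3 γδ− and Lat-/- DN3 γδint. Cells of the γδint gate carried some surface γδ TCR, less than WT γδ+ cells do. The reporter genotype was shared by both Lat-/- libraries and by none of the WT ones, so reporter and Lat deletion cannot be told apart. Every library held 500 added splenic B cells, and each group was 1 library of pooled mice, so that nothing between groups has a replicate check. Intervals cover counting error only, and no p-value is given.

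A DN3 thymocyte that makes a productive TCRβ chain signals through the pre-TCR and proceeds to the αβ lineage, whereas one that makes both a γ and a δ chain signals through the γδ TCR. LAT is the scaffold on which either receptor assembles its downstream signalling complex. The protein products of the 8 genes fall into different classes. Neurogranin, encoded by Nrgn, and the RGK-family GTPase GEM bind calmodulin, the calcium sensor that also activates calcineurin. IGFBP4 is a secreted binding protein of insulin-like growth factors, glutaminyl cyclase (Qpct) forms pyroglutamate at the amino terminus of secreted peptides, and CPA3 is a granule carboxypeptidase best known from mast cells. TUBA8 is a divergent α-tubulin, FHL2 a LIM-domain adaptor, and BEX6 belongs to a family of small proteins named for their expression in the brain.

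The genes do not form a cluster in the genome. In mm10 with the GENCODE vM21 annotation they lie on 8 chromosomes, and each is protein coding. Nrgn (ENSMUSG00000053310) spans 37544492 to 37552904 on the minus strand of chromosome 9, and Gem (ENSMUSG00000028214) spans 11704457 to 11714752 on the plus strand of chromosome 4. Igfbp4 (ENSMUSG00000017493) spans 99041244 to 99054392 on the plus strand of chromosome 11. Of the remaining genes, Bex6 is on chromosome 16, although most of its family is on the X chromosome. Tuba8 on chromosome 6 overlaps the antisense gene Gm15856, which is also counted in the files.

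Because these genes were all high in DN3b γδ+, the sequence just upstream of their starts was compared. In the RefSeq table used here (GRCm38.p6) 6 of the 8 matched, with 7 starts in all because Fhl2 had 2, and the promoters of Qpct and Gem were not analysed here. Windows of 3 genes are shown, each the 250 bases before the start and read 5′ to 3′ on the gene's strand, because they cover the range found, from no motif match to 3. Capitals mark matches on either strand, and none of the matches overlap. The letters searched for RUNX factors were TGTGGT. For NFAT factors only the short core GGAAA was searched. The letters searched for the GATA family were AGATAA.
Igfbp4, plus strand, chr11:99040994-99041243: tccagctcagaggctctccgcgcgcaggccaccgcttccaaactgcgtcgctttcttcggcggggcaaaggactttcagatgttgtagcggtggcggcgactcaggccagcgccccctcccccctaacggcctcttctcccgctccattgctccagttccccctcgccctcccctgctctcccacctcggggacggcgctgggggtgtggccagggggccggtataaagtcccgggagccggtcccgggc
Cpa3, minus strand, chr3:20242182-20242431: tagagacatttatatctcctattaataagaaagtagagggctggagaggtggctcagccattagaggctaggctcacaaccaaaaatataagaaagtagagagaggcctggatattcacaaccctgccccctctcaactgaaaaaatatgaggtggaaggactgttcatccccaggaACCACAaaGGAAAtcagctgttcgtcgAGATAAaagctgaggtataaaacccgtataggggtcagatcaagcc
Bex6, plus strand, chr16:32179550-32179799: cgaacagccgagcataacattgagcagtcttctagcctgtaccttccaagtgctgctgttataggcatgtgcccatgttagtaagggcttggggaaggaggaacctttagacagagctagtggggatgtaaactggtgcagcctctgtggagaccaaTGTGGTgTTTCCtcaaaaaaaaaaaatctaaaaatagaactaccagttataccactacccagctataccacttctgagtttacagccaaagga
The Igfbp4 window, at 69.2% GC, held no match to any of the 10 motifs searched. In the Cpa3 window, at 44.4% GC, the RUNX, NFAT-core and GATA letters began 73, 65 and 46 bases before the start. In the Bex6 window the RUNX letters began 93 and the NFAT-core letters 86 bases before the start. RUNX letters stood in 3 of the 7 windows (Fhl2, Cpa3, Bex6) and in 14.0% of the 32536 windows of all genes. NFAT-core letters stood in 3 of 7 (Tuba8, Cpa3, Bex6) against 55.7%, and GATA letters in 2 of 7 (Fhl2, Cpa3) against 9.97%. None of the 7 windows held the letters searched for AP-1 (TGANTCA), CRE (TGACGTCA), EGR (GCGNGGGCG), NBRE (AAAGGTCA), the E box (CAGGTG), TCF (CTTTGAT) or ETS (CCGGAAG), which occur in 1.35% to 17.3% of all windows. The match is of letters only and was not tested for the 8 genes.

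Of 90016 barcodes, 71081 were kept as thymocytes, from 5274 in Lat-/- DN3 γδint to 18515 in DN3b γδ−. Their median depth ran from 5737.5 UMIs in Lat-/- DN3 γδint to 18506 in DN4 γδ−, and was 15392 in DN3b γδ+ and 6418 in DN4 γδ+. For this reason shares of barcodes are given after each barcode was thinned to 4000 UMIs. Lat, the deleted gene, was at 357 to 648 CPM in the WT libraries and at 4.83 and 0.899 CPM in Lat-/- DN3 γδ− and γδint, and the Trdc-GFP feature had 30.5 and 44.2 CPM in these and at most 0.0430 CPM in WT. All 8 T cell markers were present in each library. Marker lists of other cell types differed between libraries: the summed NK list, nearly all of it Nkg7, was at 318 and 322 CPM in DN3b γδ+ and DN4 γδ+ and 7.30 to 157 CPM elsewhere, with no Ncr1 UMI, the erythroid list was highest in DN4 γδ− at 170 CPM, the myeloid list stayed at or below 49.8 CPM and the stromal list was at 44.6 to 229 CPM. Their part in the levels below was not tested. Lat-/- DN3 γδint stood apart in its ribosomal-protein share, 18.2% of UMIs against 27.7% to 33.7%, and its added B cells did too, at 19.8% against 29.8% to 36.2%. A TMM scaling shifted every log2 ratio of DN3b γδ+ over this library by 0.74. Altogether 925 barcode sequences occurred in more than 1 library, covering 1458 thymocyte entries.

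Nrgn, the calmodulin-binding member, was at 376 CPM (95% Poisson interval 373 to 379) in DN3b γδ+ and at 264 CPM (261 to 268) in DN4 γδ+. It was at 4.05 CPM in DN3b γδ−, 5.60 in DN4 γδ− and 0.670 in DN3a. Lat-/- DN3 γδ− had 1.01 CPM and Lat-/- DN3 γδint 1.56 CPM. Both libraries with a full level of surface γδ TCR were thus far above the other 5, and the lowest pair, DN3a and Lat-/- DN3 γδ−, did not differ beyond counting error.

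Gem, the GTPase that restrains voltage-gated calcium channels, had the same split. It was at 70.2 CPM (69.1 to 71.4) in DN3b γδ+ and 54.1 CPM (52.4 to 55.9) in DN4 γδ+. The other levels were 0.325 CPM in DN3b γδ−, 1.15 in DN4 γδ−, and 0.875 in DN3a. In Lat-/- DN3 γδ− the level was 0.875 CPM and in Lat-/- DN3 γδint 0.793 CPM, from 44 and 30 UMIs. In CPM the 4 libraries from DN4 γδ− down to Lat-/- DN3 γδint could not be ordered against their neighbours, and only DN3b γδ− stood below them. With TMM scaling DN4 γδ− stood above DN3a, and Lat-/- DN3 γδint and DN3b γδ− did not differ beyond counting error.

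Among the genes for secreted or granule proteins, Igfbp4 and Cpa3 were higher in DN4 γδ+ than in DN3b γδ+. Igfbp4 was at 89.8 CPM (88.4 to 91.1) in DN3b γδ+ and at 290.2 CPM (286 to 294) in DN4 γδ+. Its level was 3.70 CPM in Lat-/- DN3 γδint and 1.27 in Lat-/- DN3 γδ−, and in the WT libraries DN4 γδ−, DN3b γδ− and DN3a it was 2.51, 1.62 and 1.17 CPM. In CPM the γδint library was thus next after both γδ+ libraries. With the TMM factors of γδint and DN4 γδ−, 1.40 and 0.816, the order of this pair reversed, but not beyond counting error. Detection at 4000 UMIs per barcode was 0.705% (0.483 to 0.994) in γδint and 0.906% (0.743 to 1.09) in DN4 γδ−, with overlapping intervals. In CPM the level in Lat-/- DN3 γδ− did not differ beyond counting error from that in DN3b γδ− above it or in DN3a below it. With the TMM factors of Lat-/- DN3 γδ− and DN3b γδ−, 1.18 and 0.817, it was lower than in DN3b γδ−. Detection was lower too, 0.359% (0.225 to 0.543) against 0.820% (0.693 to 0.965).

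Cpa3 was at 87.8 CPM (86.5 to 89.2) in DN3b γδ+ and 186 CPM (183 to 189) in DN4 γδ+. The WT libraries without γδ TCR had 7.35 CPM (DN3a), 2.42 CPM (DN3b γδ−) and 0.793 CPM (DN4 γδ−), and Cpa3 was at 5.27 and 8.01 CPM in Lat-/- DN3 γδ− and γδint. Along DN3a, DN3b γδ− and DN4 γδ− Cpa3 was thus lower at each step. Its CPM in DN3a and Lat-/- DN3 γδint did not differ beyond counting error, but detection at 4000 UMIs per barcode was 2.45% (2.08 to 2.85) in DN3a and 1.50% (1.17 to 1.90) in γδint, and with the TMM factors the level was lower in γδint. Since Cpa3 is a mast cell gene, the markers of mast cells and basophils were checked. Of the 10 listed, Mcpt4, Mcpt8, Tpsb2, Tpsab1, Cma1, Fcer1a and Ms4a2 had no UMI in any library, Gata2 had 7 in all, and Hdc was at 0.144 to 0.994 CPM in each library, with 0.286 in DN3b γδ+ and 0.644 in DN4 γδ+. Kit, which early thymocytes also express, was at 3.38 to 17.6 CPM, highest in DN4 γδ+, and made up most of the list's sum of 3.81 to 18.3 CPM.

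Qpct was at 21.6 CPM (20.9 to 22.2) in DN3b γδ+ and 13.7 CPM (12.8 to 14.6) in DN4 γδ+. The remaining libraries lay between 0.700 CPM in DN3b γδ− and 1.91 CPM in Lat-/- DN3 γδ−, with 0.846 in DN4 γδ−, 1.51 in DN3a and 1.80 in Lat-/- DN3 γδint. Within these 5, the DN3a and Lat-/- libraries formed in CPM an upper group without order among neighbours, and both WT γδ− libraries were lower. With the TMM factors of Lat-/- DN3 γδint and DN4 γδ−, 1.40 and 0.816, Qpct did not differ beyond counting error between this pair.

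The cytoskeletal and adaptor genes Tuba8 and Fhl2 also peaked in DN3b γδ+. Tuba8 was at 75.7 CPM (74.5 to 76.9) there and 43.8 CPM (42.3 to 45.4) in DN4 γδ+, against 3.01 in Lat-/- DN3 γδint, 2.47 in DN3b γδ−, 1.81 in DN3a, 1.33 in Lat-/- DN3 γδ− and 1.22 in DN4 γδ−. Fhl2 was at 27.9 CPM (27.2 to 28.7) in DN3b γδ+ and 15.6 CPM (14.7 to 16.5) in DN4 γδ+, against 6.33 in DN3a, 4.04 in Lat-/- DN3 γδ−, 3.99 in Lat-/- DN3 γδint, 1.72 in DN3b γδ− and 1.36 in DN4 γδ−. Of the 8 genes Fhl2 had the smallest gap between DN3b γδ+ and DN3a, and its Lat-/- libraries did not differ from each other beyond counting error.

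Bex6 was the only one of the 8 that was high in DN3b γδ+ alone. It was at 35.7 CPM (34.9 to 36.5) in that library and at 3.72 CPM (3.28 to 4.20) in DN4 γδ+, next to 3.98 CPM in DN3b γδ− and 4.08 CPM in DN4 γδ−. DN3a had 0.800 CPM, Lat-/- DN3 γδint 0.608 CPM from 23 UMIs, and Lat-/- DN3 γδ− 0.0199 CPM from 1 UMI. In CPM the levels of DN4 γδ− and DN3b γδ−, and of DN3b γδ− and DN4 γδ+, did not differ beyond counting error. With the TMM factors of DN4 γδ+ and DN3b γδ−, 1.03 and 0.817, the Bex6 level was lower in DN4 γδ+. Its detection at 4000 UMIs per barcode was lower there too, 0.937% (0.724 to 1.19) against 1.44% (1.27 to 1.63).

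**Figure D1:**
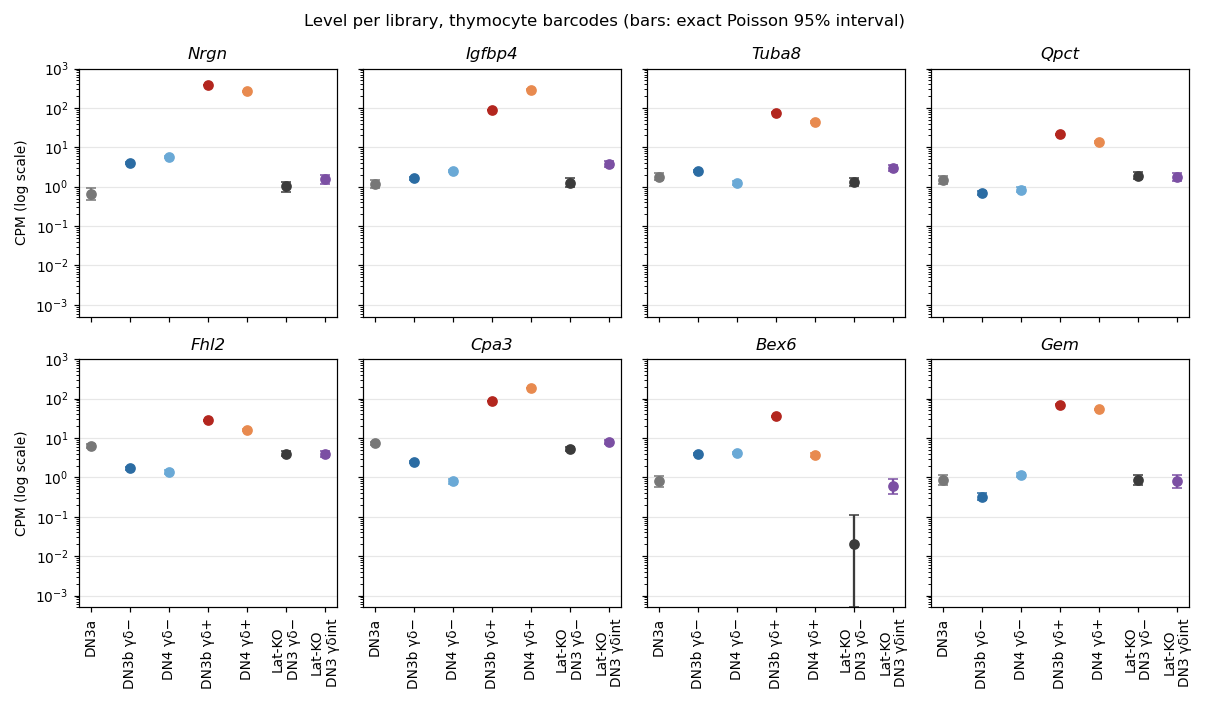
CPM (log axis) of each of the 8 genes in the 7 libraries, 1 point per library, with exact Poisson 95% intervals that cover counting error only. DN3b γδ+ and DN4 γδ+ are the highest pair for each gene except Bex6, for which DN4 γδ+, at 3.72 CPM, lies beside the γδ− libraries.

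The question of how these transcripts changed as thymocytes passed selection was addressed first along the αβ path. From DN3a to DN3b γδ−, Nrgn and Bex6 were higher, by log2 2.60 (2.12 to 3.12) and 2.32 (1.88 to 2.79), and Qpct, Fhl2, Cpa3 and Gem were lower, by log2 -1.11 to -1.88. Igfbp4 and Tuba8 were higher by less than 2-fold, at log2 0.46 (0.09 to 0.86) and 0.45 (0.14 to 0.77). Among 12348 features with at least 0.5 CPM in either library, 9.6% were at least 2-fold higher and 24% at least 2-fold lower, with a median of -0.25 for all features and -0.33 for the 8 genes. The 8 genes thus did not move one way at this step, with 2 past 2-fold upward and 4 downward. TMM scaling raised all ratios of this comparison by 0.36, after which Qpct, at log2 -0.75, was within 2-fold. Nrgn and Bex6 were also close to the level of the B-like barcodes in DN3b γδ−, and with the B-like levels subtracted Bex6 was at log2 0.48, Cpa3 at log2 -2.90, and Nrgn and Igfbp4 at log2 -6.24 and 4.86, both of them set by the floor of 3 counts in the lower library. Gem, at 30.8 CPM in the B-like barcodes of DN3a, was left without a ratio by this subtraction. With the mean over barcodes of the share of UMIs Cpa3, at log2 -0.99, was within 2-fold.

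In the γδ path, the 8 genes, chosen for a high level in DN3b γδ+, were all higher there than in DN3b γδ−. The log2 ratio ran from 3.16 (3.08 to 3.25) for Bex6 through 4.02 for Fhl2, 4.94 for Tuba8, 5.18 for Cpa3, 5.79 for Igfbp4 and 6.54 (6.46 to 6.61) for Nrgn to 7.76 (7.49 to 8.04) for Gem, which had 110 UMIs in DN3b γδ−. At least 2-fold higher were 5.13% of the 5415 features with at least 20 CPM in either library, and 11.5% of 5975 for DN3b γδ+ over DN3a. Over DN3a the order of the genes differed: Nrgn was first at log2 9.13 and Fhl2 last at log2 2.14. Nothing is read from these counts, since the level in DN3b γδ+ chose the genes.

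From DN3b γδ+ to DN4 γδ+ the genes parted. Igfbp4 was higher by log2 1.69 (1.66 to 1.72) and Cpa3 by log2 1.08 (1.05 to 1.12), whereas Bex6 was lower by log2 -3.26 (-3.44 to -3.08). The other 5 were lower by less than 2-fold: Gem by log2 -0.38, Nrgn by -0.51, Qpct by -0.66, Tuba8 by -0.79 and Fhl2 by -0.84. With the level in B-like barcodes subtracted Qpct and Fhl2 were at -0.19 and -0.21. Of 5827 features with at least 20 CPM in either library, 10.5% were at least 2-fold higher and 7.33% at least 2-fold lower. The median was 0.01 over all features and -0.58 over the 8 genes, which were chosen for a high value in the denominator. TMM scaling moved all ratios of this comparison by -0.30, after which Cpa3, at log2 0.78, was within 2-fold and Tuba8 and Fhl2, at -1.09 and -1.14, were beyond it. With the mean over barcodes of the share of UMIs, Nrgn at -1.09 and Fhl2 at -1.16 were beyond 2-fold.

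The same genes were then compared between cells with and without a surface γδ TCR in 3 settings, of which the first holds the library used for the choice. In WT DN4 neither library is named in the rule for the choice, although the genes were chosen with earlier results of these data known. There the log2 ratio of γδ+ over γδ− was 7.87 for Cpa3, 6.85 for Igfbp4, 5.56 for Nrgn, 5.55 for Gem, 5.17 for Tuba8, 4.01 for Qpct and 3.52 for Fhl2. Only Bex6 had no difference in CPM beyond counting error there, at log2 -0.13 (-0.33 to 0.07). With the TMM factors of 1.03 and 0.816 that interval lies below 0. Detection of Bex6 at 4000 UMIs was also lower in γδ+, 0.937% (0.724 to 1.19) against 1.50% (1.29 to 1.73). With 7 of 8 genes at least 2-fold higher, the share among the features with at least 0.5 CPM in either library was 25.8%, and among those with at least 20 CPM, which include 5 of the genes, 18.4%. The γδ+ libraries of both stages come from the same sort and the same pooled thymi.

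In Lat-/- DN3 cells the corresponding ratios were below log2 2 for each gene but Bex6. Between Lat-/- DN3 γδint and Lat-/- DN3 γδ−, Igfbp4 was higher by log2 1.54 (1.10 to 1.99) and Tuba8 by log2 1.18 (0.73 to 1.64). At 4000 UMIs 32 γδint barcodes held Igfbp4 and 39 held Tuba8. Both were in 7 of them, where the product of their shares gives 0.275. B-like barcodes held Igfbp4 at 2.41 CPM (0.061 to 13.4) in γδint, from 1 UMI, and had no UMI of it in γδ−. With this level subtracted Igfbp4 was about equal in both libraries, a change that rests on that 1 UMI. Cpa3 at log2 0.60 (0.36 to 0.85) was higher by less than 2-fold. Its detection at 4000 UMIs was not higher in γδint, 1.50% (1.17 to 1.90) against 1.70% (1.39 to 2.05). Nrgn gave log2 0.62 (0.06 to 1.19), but its level was below that of the B-like barcodes in both libraries, and with TMM scaling it was at log2 0.37. Bex6 gave log2 4.94 (2.31 to 10.3), but from 23 UMIs against 1. No difference beyond counting error was seen for Qpct at log2 -0.09 (-0.56 to 0.38), Fhl2 at -0.02 (-0.33 to 0.30) and Gem at -0.14 (-0.86 to 0.56). Of 12393 features with at least 0.5 CPM in either library, 5.48% were at least 2-fold higher and 4.71% at least 2-fold lower, against 3 and none of the 8 genes. The ribosomal-protein share differed between these libraries too, 27.7% against 18.2%, and with TMM scaling or without ribosomal-protein and mitochondrial genes Igfbp4 and Bex6 stayed past 2-fold and Tuba8, at log2 0.93 and 0.97, did not.

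Set against WT DN3b γδ+, Lat-/- DN3 γδint had each of the 8 genes at far lower levels. The log2 ratio of WT over Lat-/- was 7.91 for Nrgn, 6.47 for Gem, 4.65 for Tuba8, 4.60 for Igfbp4, 3.58 for Qpct and 2.81 for Fhl2. At least 2-fold higher in WT were 7.41% of 6600 features with at least 20 CPM in either library. In CPM the γδint library had levels close to those of DN3a for Qpct, Bex6 and Gem, whose intervals included no difference, whereas Fhl2 was below DN3a by log2 -0.66 (-0.95 to -0.38). Igfbp4 was above DN3a by log2 1.66 (1.22 to 2.11). The B-like barcodes of DN3a and γδint held Igfbp4 at 2.05 and 2.41 CPM, from 1 UMI each. Tuba8 gave log2 0.74 (0.34 to 1.15), an interval that includes 0 with the TMM factors of 1.40 and 1.05. The intervals of Cpa3, log2 0.12 (-0.10 to 0.34), and Bex6, log2 -0.40 (-1.19 to 0.37), then lie below 0. Nrgn gave log2 1.22 (0.60 to 1.86), with less Nrgn in γδint thymocytes than in the B-like barcodes of that library. Genotype, reporter and sort gate all differ in this comparison and cannot be told apart.

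**Figure D2:**
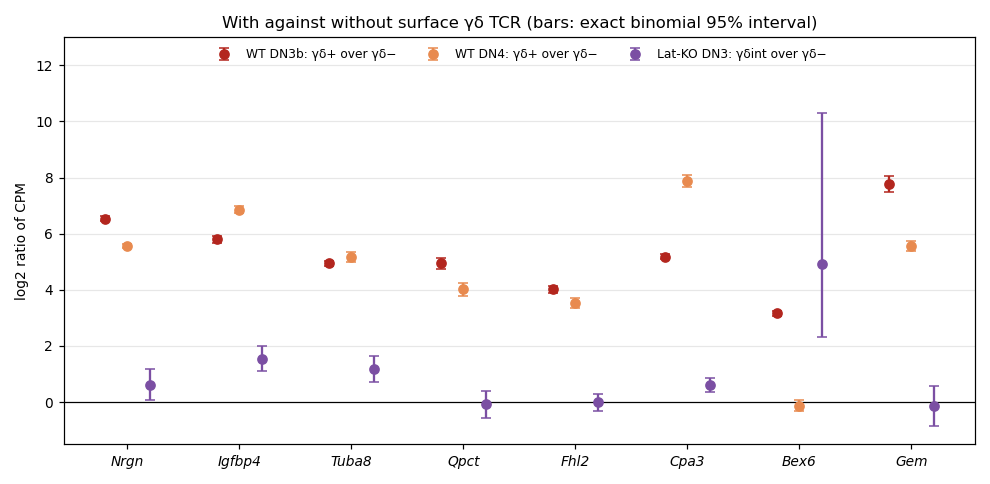
Log2 ratio of CPM between libraries with and without surface γδ TCR for each gene, in WT DN3b, WT DN4 and Lat-/- DN3, with exact binomial 95% intervals that cover counting error only. In Lat-/- the points for Qpct, Fhl2 and Gem lie at 0 within their intervals, and in WT DN4 that of Bex6 does.

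In how many cells the transcripts were found was asked next, at 4000 UMIs per barcode. Nrgn was detected in 44.2% (Clopper-Pearson 43.3 to 45.2) of 10851 DN3b γδ+ barcodes and in 19.9% (19.0 to 20.8) of 6934 DN4 γδ+ barcodes. Igfbp4 was detected in 21.9% and 48.5%, and Cpa3 in 21.9% and 33.6%. Tuba8 was found in 23.6% and 12.9%, Gem in 18.5% and 13.8%, and Fhl2 in 11.1% and 4.59%. Qpct was found in 8.12% and 4.64%, and Bex6 in 13.2% and 0.937%. At this depth detection ranked the 2 stages as the levels did for every gene. Without thinning the shares were 64.4% for Nrgn, 25.0% for Qpct and 34.8% for Bex6 in DN3b γδ+, and 24.5%, 9.09% and 2.24% in DN4 γδ+. Cpa3 was the exception to that ranking without thinning, at 40.7% in DN3b γδ+ and 38.3% in DN4 γδ+. The barcodes below 4000 UMIs, 1510 and 1769 in these libraries, were left out of the thinned shares.

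In the other 5 libraries no gene exceeded 2.45% of barcodes at this depth. Cpa3 and Fhl2 were at 2.45% and 2.31% in DN3a, and Nrgn and Bex6 at 1.66% and 1.44% in DN3b γδ− and 1.49% and 1.50% in DN4 γδ−. Bex6 was in 0 of 6125 barcodes of Lat-/- DN3 γδ−, which allows a share of up to 0.0602% with a UMI at this depth and limits detection, not the cells that hold the transcript. Without thinning 1 barcode held it.

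The added B cells, which should lack γδ T cell transcripts, gave the background. Free RNA and barcodes that hold a B cell and a thymocyte both add to it and were not told apart. In DN3b γδ+, 29.4% of 51 B-like barcodes (17.5 to 43.8) held Nrgn at 4000 UMIs. Over all B-like barcodes of that library, also those below 4000 UMIs, the median depth was 3614 UMIs, and over all its thymocyte barcodes it was 15392. The level of Nrgn in these B-like barcodes was 19.5% (13.7 to 26.9) of that in thymocytes, beside 23.0% for Trdc and 25.0% for Lck, both T cell genes. Igfbp4 was at 22.1%, Tuba8 at 18.3% and Cpa3 at 33.9% (19.0 to 55.9). Fhl2 at 42.6% (15.6 to 92.8), Qpct at 27.6% (5.69 to 80.7) and Bex6 at 16.7% (3.44 to 48.8) rest on 6, 3 and 3 UMIs. The intervals of these 7 genes each included the proportion of Trdc. In DN4 γδ+ this proportion was lower, 7.10% for Nrgn, 4.70% for Igfbp4 and 10.1% for Cpa3, next to 8.69% for Trdc and 9.59% for Cd3e. In DN3b γδ− the median depth was 2420 UMIs in B-like and 16948 in thymocyte barcodes. Nrgn was at 4.30 CPM (0.887 to 12.6) in its B-like barcodes, from 3 UMIs. This was as high as the 4.05 CPM in thymocytes, so that the low Nrgn level there is neither read as expression nor shown to be background. The same held in Lat-/- DN3 γδ− and γδint, with 5.71 and 4.82 CPM in B-like barcodes from 4 and 2 UMIs. Bex6 in B-like barcodes, at 2.87 CPM in DN3b γδ− and 4.55 CPM in DN4 γδ− from 2 UMIs each, was likewise near its thymocyte level.

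Gem behaved differently in this check. B-like barcodes held it at 4.30 to 50.6 CPM in all 7 libraries, with 50.0 and 50.6 CPM in the Lat-/- libraries, in which thymocytes had less than 1 CPM. Its share in B-like barcodes, 17.6% in DN3b γδ+ and 12.3% in DN4 γδ+, was close to that in thymocytes, and B cells were therefore no background for Gem.

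**Figure D3:**
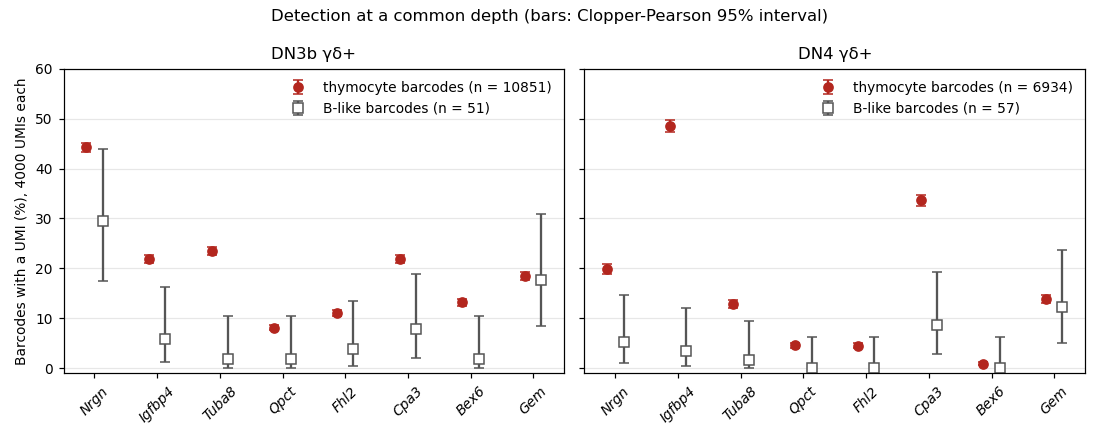
Percent of barcodes with at least 1 UMI of each gene after thinning to 4000 UMIs, for thymocyte and B-like barcodes of DN3b γδ+ and DN4 γδ+, with Clopper-Pearson 95% intervals. Points of thymocytes lie above those of B-like barcodes, with Nrgn at 44.2% against 29.4% in DN3b γδ+, but intervals overlap in DN3b γδ+ for Nrgn, Qpct, Fhl2 and Gem and in DN4 γδ+ for Qpct, Fhl2, Bex6 and Gem.

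Counts per barcode were unevenly spread for some of the genes. In DN3b γδ+, 55.8% of barcodes had no Nrgn UMI at 4000 UMIs, 16.7% had 1, 16.0% had 2 to 4 and 11.5% had 5 or more, up to 31. The variance was 5.28 times the mean, where random sampling from equal cells gives about 1. In DN4 γδ+ it was 6.39 times the mean, and the tenth of barcodes richest in Nrgn held 83.5% of its UMIs, against 56.4% in DN3b γδ+. The mean was lower in DN4 γδ+, at 0.694 against 1.55 UMIs, as was the level in B-like barcodes, at 18.8 against 73.4 CPM, and the part of either in this difference was not tested.

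Igfbp4, Cpa3 and Gem had ratios of variance to mean of 2.08, 2.24 and 1.86 in DN3b γδ+ and of 2.55, 3.33 and 2.37 in DN4 γδ+. Tuba8, Qpct, Fhl2 and Bex6 were near 1 in DN3b γδ+, at 1.15, 1.06, 1.09 and 1.12. At the low means of the last 4 genes a ratio near 1 says little about how they were spread over cells. In DN4 γδ− the ratio for Nrgn was 8.48, with 0.144% of barcodes at 5 or more UMIs and a maximum of 34, whereas in DN3b γδ− it was 1.05 with a maximum of 2.

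Most γδ+ barcodes held at least 1 of the 8 genes: 80.7% in DN3b γδ+ and 78.8% in DN4 γδ+, against 5.14% to 6.89% in the other 5 libraries. Of the B-like barcodes of DN3b γδ+ 54.9% did, a share that includes the 17.6% with Gem. At least 3 were held by 22.8% (22.0 to 23.6) of DN3b γδ+ barcodes, 2474 of 10851, and by 14.3% (13.5 to 15.1) of DN4 γδ+ barcodes, 990 of 6934. Among B-like barcodes of DN3b γδ+ there were 2 of 51. Such barcodes numbered 7 in DN4 γδ−, 5 in DN3a, 5 in Lat-/- DN3 γδint, 4 in DN3b γδ− and 0 of 6125 in Lat-/- DN3 γδ−. Since the genes were chosen for high levels in DN3b γδ+, its higher share follows from the choice. No barcode held all 8, and the maximum was 7.

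The rare barcodes with 3 or more of the genes in the other libraries were compared with the rest of their library. In DN4 γδ− the 7 barcodes had 1464 CPM of Trdc, 286 CPM of Sox13, a γδ transcription factor, and no Cd8b1 UMI, against 234, 6.65 and 110 CPM in the rest. In DN3a the 5 barcodes had 1800 CPM of Trdc against 303 CPM and no Sox13 UMI against 11.8 CPM. Trdc was at 562 against 210 CPM in the 4 barcodes of DN3b γδ− and at 50.0 against 37.2 CPM in the 5 of Lat-/- DN3 γδint, where the reporter sits at Trdc. Those 5 γδint barcodes had less Ptcra, the pre-TCR α chain gene, at 50.0 against 1003 CPM. Rag1 was at 50.0 against 657 CPM in them and Il2ra at 150 against 684 CPM. The 5 barcodes of DN3a had 150 against 438 CPM of Ptcra and 100 against 493 CPM of Rag1. Their Il2ra was not lower, at 700 against 643 CPM. With so few barcodes these values are a description only.

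In DN3b γδ+, pairs of the genes were detected together about as often as the product of their shares gives, or somewhat more often. The ratio of observed to product ranged from 0.891 (Igfbp4 with Fhl2) to 1.61 (Igfbp4 with Cpa3) over the 28 pairs, with a median of 1.12, and 22 pairs were above 1. Igfbp4 and Cpa3 were together in 837 barcodes, 7.71% where the product is 4.79%. Igfbp4 with Tuba8 gave 1.37, Nrgn with Qpct 1.31 and Bex6 with Gem 1.31, but Nrgn with Igfbp4 gave 0.934. Background detections are included in these ratios, and their part was not tested. In this library 29.4% of B-like barcodes held Nrgn and 54.9% any of the genes, Gem included, for which B cells were no background.

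In DN4 γδ+ the pairs spread more widely, from 0.506 (Nrgn with Tuba8) to 2.22 (Bex6 with Gem, 20 barcodes), with 15 of 26 pairs above 1. Nrgn and Fhl2 were found together at 2.17 times the product, whereas Nrgn with Cpa3 was at 0.677 and Fhl2 with Cpa3 at 0.627. Cpa3 was above 1 with Igfbp4 (1.25) and with Tuba8 (1.38). Nrgn with Fhl2 and Qpct on the one side, and Igfbp4, Tuba8 and Cpa3 on the other, thus tended to mark different barcodes at this stage, except that Qpct and Igfbp4 were found together as often as the product gives.

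**Figure D4:**
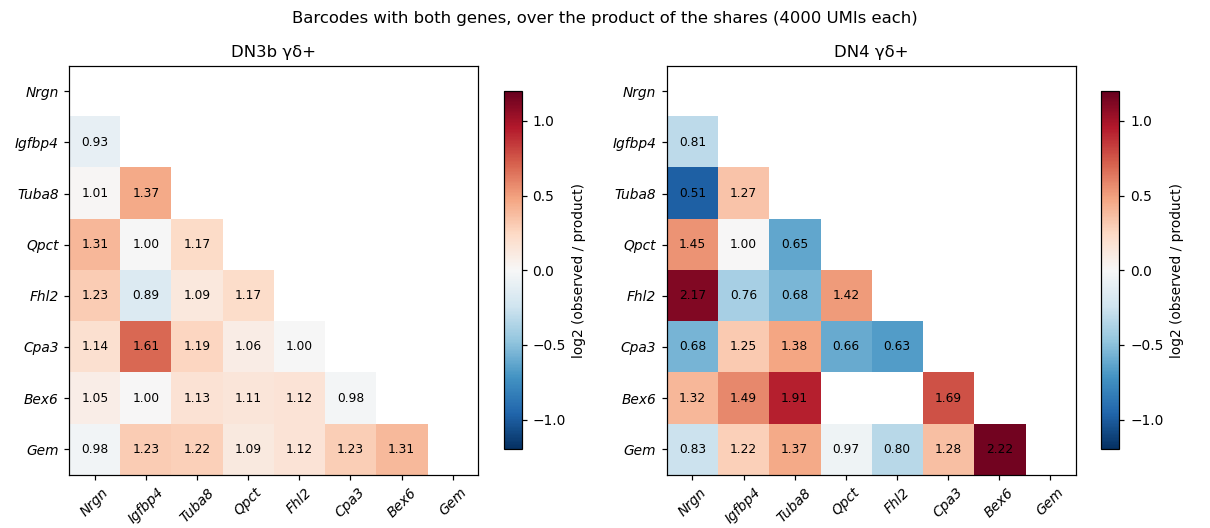
Log2 of the share of barcodes with both genes of a pair over the product of the shares of each gene, at 4000 UMIs, for DN3b γδ+ and DN4 γδ+, with the ratio itself printed in each cell (blank: fewer than 5 barcodes with both). Ratios in DN3b γδ+ stay between 0.891 and 1.61, and in DN4 γδ+ they run from 0.506 for Nrgn with Tuba8 to 2.22 for Bex6 with Gem.

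DN3b γδ+ barcodes were next divided by other genes, into ranges and not into cell types. By UMIs of 17 cell-cycle genes at 4000 UMIs, the upper range (21 to 57 UMIs, 3412 barcodes) had more Tuba8 than the lower (0 to 12 UMIs, 3770 barcodes), with 43.6 CPM in the low, 71.1 in the middle and 104 in the high range, a log2 ratio of 1.25 (1.11 to 1.38). Igfbp4 and Nrgn were higher by log2 0.77 and 0.70, Qpct by 0.48 and Cpa3 by 0.35. Fhl2 and Bex6 were lower, by log2 -0.40 (-0.60 to -0.20) and -0.28 (-0.46 to -0.10), and Gem was level at 0.03 (-0.10 to 0.16). Igfbp4 and Cpa3 were lowest in the middle range, at 66.4 and 70.0 CPM. The tubulin gene was thus the one with the largest difference along the cycle genes.

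By UMIs of 9 TCR-signal genes (Cd5, Egr1, Egr2, Egr3, Nr4a1, Nab2, Id3, Cd69 and Pdcd1), Nrgn showed the largest difference. Its level was 252 CPM in the low, 437 in the middle and 583 in the high range, log2 1.21 (1.16 to 1.27) between the outer ranges. Qpct at log2 0.64 (0.41 to 0.86), Fhl2 at 0.42 (0.24 to 0.61) and Gem at 0.26 (0.13 to 0.38) were also higher. Igfbp4 was slightly lower at -0.19 (-0.30 to -0.08), and Tuba8, Cpa3 and Bex6 did not differ beyond counting error. Gem was thus only weakly related to these genes from cell to cell.

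Il2ra, which encodes CD25 and is shut down as cells leave DN3, divided the library as well. The 284 barcodes with 2 or more Il2ra UMIs had less of most of the genes than the 9702 with none: log2 -2.10 for Tuba8, -1.69 for Nrgn, -1.65 for Bex6, -1.58 for Gem, -1.51 for Qpct, -1.10 for Igfbp4 and -0.93 for Cpa3. Fhl2 was the exception, at log2 -0.23 (-0.80 to 0.29). Conversely, barcodes with 4 or 5 of the 8 genes had 17.4 CPM of Il2ra and 2.90 CPM of Ptcra, the pre-TCR α chain, against 51.2 and 18.2 CPM in those with 0 or 1. Trdc was at 1230 against 1009 CPM in the same classes and Sox13 at 91.5 against 58.1 CPM.

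**Figure D5:**
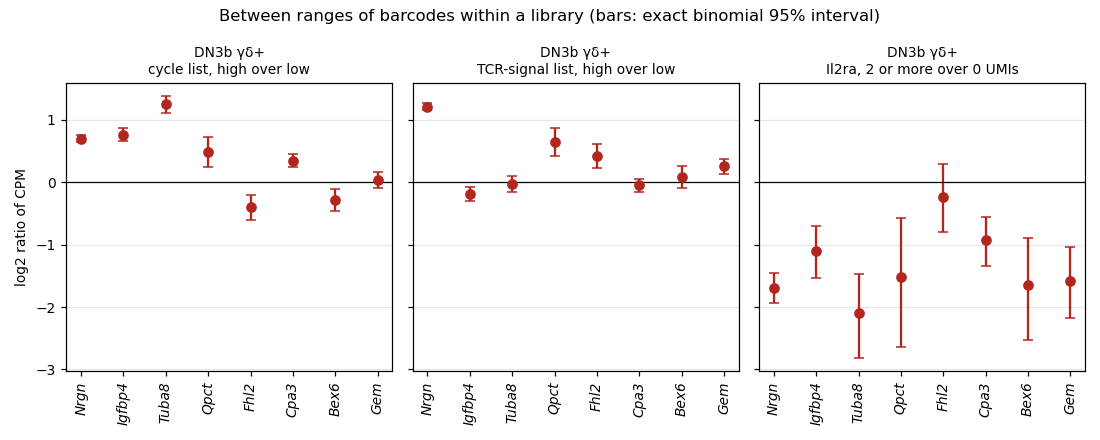
Log2 ratio of CPM between ranges of barcodes for each gene in DN3b γδ+, divided by cell-cycle genes, by TCR-signal genes and by Il2ra, with exact binomial 95% intervals that cover counting error only. Tuba8 has the largest ratio for the cycle genes at 1.25, Nrgn for the TCR-signal genes at 1.21, and for Il2ra all points lie below 0, with the interval of Fhl2 reaching above it.

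Relatives of the 8 genes were listed in 9 families or pathways, 54 further genes in all, and most of them were low in these libraries or did not have the same pattern. In the group of calcium-signalling genes, Camk2d and Ppp3ca were at least 2-fold higher in DN3b γδ+ than in DN3b γδ−. Camk2d went from 39.1 to 81.6 CPM, and Ppp3ca, which encodes a catalytic subunit of calcineurin, from 12.5 to 31.4 CPM. Ppp3cb, for another catalytic subunit, went from 70.9 to 62.6 CPM, and Camk4 from 31.5 to 24.4 CPM. Camk2d and Ppp3ca were within 2-fold in DN3b γδ+ over DN3a, at log2 0.995 and 0.165. Over Lat-/- DN3 γδint they were at log2 0.111 and -0.0024. Their highest levels in B-like barcodes of any library were 361.7 and 208.4 CPM, above those in thymocytes. The closest relatives of Nrgn, Gap43 and Pcp4, had 3 and 8 UMIs in all libraries together. Among the α-tubulins Tuba1a was higher, from 25.4 to 56.1 CPM, and the main isotype Tuba1b was lower, from 1317 to 1035 CPM.

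The other IGF-binding proteins did not exceed 2.23 CPM in any library, although the receptors Igf1r (33.1 to 52.6 CPM) and Igf2r (11.1 to 46.0 CPM) were found in each. Fhl3 and Fhl4 stayed at or below 3.05 CPM and Fhl5 had no UMI. Of the carboxypeptidases Cpa1, Cpa4 and Cpa5 had no UMI, and Qpctl, which encodes the Golgi glutaminyl cyclase, lay between 3.76 and 8.99 CPM. Bex3 was at 103 to 153 CPM and did not follow Bex6, whereas Bex4 did at a low level, with 2.72 CPM in DN3b γδ+ against 0.732 CPM in DN3b γδ− and 0.802 CPM in DN4 γδ+. Of the other RGK genes, Rem2 was at 3.55 CPM in DN3b γδ+ against 0.458 CPM in DN3b γδ− (log2 2.96) and Rrad at 3.42 CPM there and 17.1 CPM in DN4 γδ+, with up to 21.7 CPM in B-like barcodes. Of the 54, 8 calcium-signalling genes, 4 α-tubulins, 2 genes of the IGF axis and 1 of the Bex family reached 20 CPM in any library. Among these Camk2d, Ppp3ca and Tuba1a were past 2-fold upward in DN3b γδ+ over DN3b γδ−, beside 5.13% of all features at 20 CPM. In DN3b γδ+ over Lat-/- DN3 γδint, Camk2d, Ppp3ca and Tuba1a were each within 2-fold, with Tuba1a at log2 0.430.

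Of the 16 genes next to the 8, 5 were past 2-fold upward in DN3b γδ+ over DN3b γδ−. Of all features with at least 0.5 CPM in either library, a limit that Vsig2, Cdh17 and Tns4 did not reach, 8.39% were. Among the others, Top2a beside Igfbp4 had a log2 ratio of -0.23, Pex26 beside Tuba8 had -0.01 and Fbxo45 beside Bex6 had -0.07. Siae, Nck2, Prkd3, Gyg and Nrros were higher by log2 0.67 to 0.94. Past 2-fold were Usp18 beside Tuba8, at 5.70 and 25.8 CPM (log2 2.18), Cdc42ep3 beside Qpct at log2 1.18, Cdh17 beside Gem, Vsig2 beside Nrgn, and Cpb1 beside Cpa3, itself a carboxypeptidase gene. Usp18 was at 24.7 and 29.5 CPM in Lat-/- DN3 γδ− and γδint, near its DN3b γδ+ level. Cdc42ep3 was at 50.8 CPM in DN3a and 57.7 and 70.3 CPM in the Lat-/- libraries, above the 40.1 CPM of DN3b γδ+. Cpb1 was at 0.562 CPM in DN3b γδ+ and 0.759 CPM in DN4 γδ+ and at most 0.0264 CPM elsewhere, log2 5.57 (4.17 to 7.47). Cdh17 had log2 6.04 (3.47 to 11.4), from a level of 0.194 CPM in DN3b γδ+. Vsig2, at 0.0255 CPM against no UMI in DN3b γδ−, had log2 1.53 with a floor of 3 counts. Its interval began at 0.66, under 2-fold, and like Cdh17 it lay below the 0.5 CPM of that background. Tns4 beside Igfbp4 had too few UMIs for a ratio.

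Over the 7 libraries, the genes most like each of the 8 by Pearson r of log2(CPM + 1), among 7025 features with at least 20 CPM in a library, were Rapsn for Nrgn (0.987), Dok2 for Igfbp4 (0.994), Lef1os1 for Tuba8 (0.987), Gem for Qpct (0.981), Egr1 for Fhl2 (0.985), Cytip for Cpa3 (0.996), Pomp for Bex6 (0.965) and Ikzf1 for Gem (0.989). Next came Eno3 and Cd6 for Nrgn, Actb and Rab19 for Igfbp4, Ikzf1 and Atf6 for Tuba8, and Tox and Cnn2 for Cpa3. Qpct had Tmem251 and Lef1os1, Fhl2 had Pigx and Chst15, Bex6 had Tmem167 and Cd28, and Gem had Tox2 and Qpct. With 7 points, of which 1 or 2 are high, many features reach such values, and 8 of these 24 names remained with a minimum of 5 CPM. Over the 10851 DN3b γδ+ barcodes the highest r of Nrgn were those with Lef1 (0.334), Tmsb10 (0.298) and Cap2 (0.295). Igfbp4 reached 0.312 with Cd52 and 0.309 with Tmsb4x, and Cpa3 reached 0.280 with Tmsb4x. For Tuba8, Qpct, Fhl2, Bex6 and Gem no r exceeded 0.160, which is not read as a relation in counts this sparse.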

How the data were processed

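Deposited per library were UMI counts per feature and barcode, which the authors made with Cell Ranger (4.0.0 according to the file headers and 5.0.1 in the submitters' processing notes) on mm10 with the Trdc-GFP feature added, keeping barcodes called as cells; they were neither scaled nor corrected. No other column was used.

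Barcodes entered with 200 or more genes and no more than 15% of UMIs from mitochondrial genes. Thymocyte barcodes had at most 1 UMI of Cd79a, Cd79b and Ms4a1 together. B-like barcodes had at least 10 and at most 5 of CD3 genes, and 281 mixed and 6615 intermediate barcodes were left out. Since Cd79b was also found in thymocytes, at 8.65 to 49.3 CPM, the rule drops some DN cells. No doublet caller was run; leaving out the 8% of barcodes with the most UMIs was an alternative.

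UMIs were summed per library in Python 3.11.15 with pandas 2.3.3, numpy 2.4.6 and scipy 1.17.1. Intervals at 95% are exact Poisson for CPM, exact conditional binomial for log2 ratios and Clopper-Pearson for shares, and a count of 0 is bounded by Clopper-Pearson. With 1 library per group no test was made. Shares used barcodes thinned once to 4000 UMIs. TMM factors came from edgeR 4.0.16 (R 4.3.3), as a scaling only. Ratios and thinning were tested on simulated data. The share of features past 2-fold was taken over features with at least 20 CPM in either library, or 0.5 CPM, a limit added after seeing the data.

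Named were the 8 genes, family members at 20 CPM or more or by their counts, neighbouring genes, marker lists, and the 3 most similar genes per member. The members and lists were chosen with earlier results of these data known, and Cpa3 was also among the genes the study chose on these samples. A division of DN4 γδ+ barcodes by further gene lists, and 1 of the relatives, are not reported here.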

Additional observations from a re-analysis of the deposited data

Results flagged for a closer look

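For 4 of the 8 genes the difference between cells with and without surface γδ TCR had opposite signs in different settings, 1 library against 1 library each, and whether the settings differ was not tested. In Lat-/- DN3, γδint over γδ− gave a log2 ratio of -0.086 (-0.56 to 0.38) for Qpct, against 4.95 in WT DN3b and 4.01 in WT DN4. Fhl2 gave -0.015 (-0.33 to 0.30) in Lat-/-, against 4.02 in WT DN3b and 3.52 in WT DN4. Gem gave -0.14 (-0.86 to 0.56) in Lat-/-, against 7.76 in WT DN3b and 5.55 in WT DN4. These 3 negative values are within counting error of 0.

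Bex6 was at log2 -0.13 (-0.33 to 0.07) in WT DN4, against 3.16 in WT DN3b and 4.94 (2.31 to 10.3) in Lat-/- DN3. The Lat-/- value rests on 23 UMIs against 1.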

How the results depend on the processing

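No paired analysis was possible because each group had 1 library and no comparison came from a test. Of 429 log2 ratios recomputed for the 8 genes, 316 stayed within the reported interval, 112 moved beyond it, and 1 reversed. A change of sign was counted as reversed only for a ratio past 2-fold. The reversed ratio was Nrgn in DN3b γδ− over DN3a, at -6.24 once the level in B-like barcodes was subtracted, a value set by the floor of 3 counts. Bex6 in Lat-/- DN3 γδint over γδ− fell to log2 2.04 in barcodes with 0 UMIs of the B cell genes. Before that filter γδ− had 1 Bex6 UMI, and a count of 0 enters such ratios as the floor of 3.

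All 8 genes stayed past 2-fold in DN3b γδ+ over DN3b γδ−, DN3a and Lat-/- DN3 γδint under each alternative tried. With a 4-fold limit, 2 genes passed for DN3b γδ− over DN3a (6 at 2-fold), 1 for DN4 γδ+ over DN3b γδ+ (3 at 2-fold) and 1 for Lat-/- DN3 γδint over γδ− (3 at 2-fold). For DN4 γδ+ over DN3b γδ+, 5 passed 2-fold without the 8% of barcodes with the most UMIs, where Tuba8 at -1.02 and Fhl2 at -1.07 joined, and 5 with the mean over barcodes of the share of UMIs, where Nrgn at -1.09 and Fhl2 at -1.16 joined.

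The share of barcodes with at least 3 of the 8 genes depended on depth and on the rule for detection. In DN3b γδ+ it was 22.8%, and 7.90% at 2000 UMIs, 1.54% with at least 2 UMIs per gene and 17.2% for 7 genes without Gem. In DN4 γδ+ it was 14.3%, and 4.58%, 1.50% and 9.36%. Of the 24 genes named as most similar over libraries, 8 remained with a minimum of 5 CPM and 8 with log2(CPM + 5).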
